A study of Mus musculus with 9 samples.

Results

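Huntingtin and 6 proteins that carry a BEACH domain are encoded by the mouse genes Htt, Wdfy3, Nbea, Lrba, Lyst, Nbeal1 and Nbeal2. The members were the genes whose symbol in the authors' gene table equals one of these 7 names, and all 7 were found among 29232 genes in that table. Their tags were also looked up among the 11622 genes with a tag in the lists of tags placed on transcripts. HITS-CLIP was used to measure which RNA is held by FMRP, whose loss causes fragile X syndrome, or by Hu proteins of neurons: ultraviolet light crosslinks protein and RNA, an antibody pulls the protein down, and the short RNA pieces attached to it are sequenced as tags. The material was polyribosomes from cortex and cerebellum of FVB mice, with brains of littermates pooled, so each library is a pool and the libraries of a group differ in age.

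The 9 libraries fall into 4 groups. With Protocol 1 (1% SDS, 454 sequencing), FMRP was precipitated with the mixed monoclonal antibodies 7G1-1 and 2F5 at P14, P15 and P25 (n = 3) or with the polyclonal antibody ab17722 at P14 and P25 (n = 2). With Protocol 2 (2% SDS, Illumina sequencing), it was precipitated with ab17722 at P11 and P13 (n = 2), and the other part of the same P11 and P13 lysates went to a human antiserum against Hu proteins (n = 2). The mice of Protocol 1 were males, and the Fmr1-null littermates that the submitters ran in parallel were not analysed here. In the authors' table the FMRP libraries held 4485 to 8360 tags on 454 and 25496 and 43562 on Illumina, while the transcript lists held 4397 to 7713 on 454 and 25873 to 49847 on Illumina. All 6 neuronal markers had tags, at a summed 3023 to 5664 CPM (tags scaled to one total in every library) in FMRP libraries and 7073 to 11856 CPM in Hu libraries. Markers of oligodendrocytes summed to 149 to 2314 CPM with FMRP and 5063 to 11616 CPM with Hu, and those of astrocytes to 178 to 1642 CPM and 77.3 to 120 CPM. Of 5 blood cell markers 3 had a tag, summing to 0 to 224 CPM with FMRP and 0 CPM with Hu, and Itga2b and Pf4 had none. Microglia markers (1 of 5 with a tag) summed to 0 to 227 CPM with FMRP and 0 to 38.7 CPM with Hu. Those of endothelium (2 of 4 with a tag) summed to 0 to 459 CPM and 0 to 20.1 CPM.

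BEACH domain proteins are very large scaffolds that act in vesicle traffic, membrane fusion and fission, and autophagy. Huntingtin, the protein altered in Huntington disease, is likewise a large scaffold, built of HEAT repeats, and links vesicles to microtubule motors. Huntingtin has no BEACH domain, but it shares with the BEACH proteins its size, its long coding sequence and its place in membrane traffic and autophagy. Hu proteins are known to bind U-rich and AU-rich elements, mostly in 3′ untranslated regions.

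The members differ widely in how much FMRP tag signal they carried. Per kilobase of transcript, Wdfy3 had 169 ± 42.4 CPM per kb (SD, n = 7 FMRP libraries), Htt 139 ± 28.8, Nbea 119 ± 77.1, Lyst 20.2 ± 19.2, Lrba 10.3 ± 7.86 and Nbeal1 2.79 ± 4.79. Nbeal2 has no transcript length in the authors' table and was not ranked. Among 8824 genes ranked by this level Wdfy3 was 137th, Htt 191st and Nbea 242nd, while Lyst was 2647th, Lrba 4402nd and Nbeal1 6941st, and the median gene was at 10.2 CPM per kb. The spreads of Wdfy3, Htt and Nbea overlap, as do those of Lyst, Lrba and Nbeal1. Between the sets lies a gap, since the lowest FMRP library of Nbea (62.0 CPM per kb) was above the highest of Lyst (51.0). In the authors' deposited table, genes are ranked by a chi-square statistic over the 7 FMRP libraries, and there Wdfy3 stood at rank 25 with a p-value of 1.07e-13, Htt at rank 33 with 6e-13 and Nbea at rank 86 with 1.52e-10. The authors' deposited table puts Lyst at rank 998 (p-value 0.000916), Lrba at 1644 (0.0203), Nbeal2 at 3578 (0.487) and Nbeal1 at 4288 (0.709).

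Wdfy3, also called ALFY, is an adaptor of selective autophagy that brings protein aggregates to the autophagosome. It lies, as gene ID 72145, on mm9 chromosome 5, positions 102264604 to 102498940, on the minus strand, with a transcript of 12334 nt of which 10531 nt are coding. The authors' table gives it 9 tags in the monoclonal P14 library, 22 at P15 and 19 at P25, 11 and 8 in the polyclonal P14 and P25 libraries, and 55 and 98 in the polyclonal P11 and P13 libraries. Scaled to library size this ran from 1363 CPM (polyclonal P25) to 2977 CPM (monoclonal P15). Both polyclonal 454 libraries were below every other FMRP library.

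Htt (gene ID 15194) lies on chromosome 5, positions 35104389 to 35252045, on the plus strand, with a transcript of 12914 nt and a coding sequence of 9705 nt. It had 8, 14 and 11 tags in the monoclonal P14, P15 and P25 libraries, 16 and 13 in the polyclonal P14 and P25 libraries, and 36 and 73 in the polyclonal P11 and P13 libraries. Of these, 2 tags fell on a second line of the table that carries the same gene, just past the 3′ end. The range was 1316 CPM (monoclonal P25) to 2299 CPM (polyclonal P14), the narrowest range, relative to the mean, of the 7 genes.

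Nbea encodes neurobeachin, a neuronal protein that anchors protein kinase A and takes part in the delivery of receptors to synapses. Its locus (gene ID 26422) is on chromosome 3, positions 55429120 to 55987623, on the minus strand, with 10983 nt of transcript and 8811 nt of coding sequence. Its tags numbered 5, 8 and 6 in the monoclonal P14, P15 and P25 libraries, 5 and 4 in the polyclonal P14 and P25 libraries, and 76 and 82 in the polyclonal P11 and P13 libraries. The 5 libraries of Protocol 1 lay between 681 and 1115 CPM, below both libraries of Protocol 2 at 2981 (P11) and 1882 (P13) CPM.

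Lyst (gene ID 17101), the gene altered in Chediak-Higashi syndrome and a regulator of lysosome-related organelles, lies on chromosome 13, positions 13682676 to 13869707, on the plus strand. It had 0, 0 and 2 tags in the monoclonal P14, P15 and P25 libraries, 2 and 1 in the polyclonal P14 and P25 libraries, and 18 and 24 at P11 and P13. Scaled, Lyst was at 706 CPM at P11 and 551 CPM at P13 and at 0 to 287 CPM in the other libraries, but a count of 0 allows up to 3 counts, which is 669 CPM in the monoclonal P14 library and 406 CPM in the P15 library. The transcript has 13834 nt, of which 11565 nt are coding.

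Lrba is known for the recycling of the immune receptor CTLA4 in T cells. The gene (ID 80877), on chromosome 3 from 86028612 to 86586616 on the plus strand, had 1 tag in each of 4 libraries of Protocol 1, 0 in the monoclonal P15 library, 0 at P11 and 11 at P13. Nbeal1 (gene ID 269198), whose function is little known, lies on chromosome 1 from 60237443 to 60391549 on the plus strand and had tags only at P11 (3) and P13 (6) in the authors' table. Nbeal2 (gene ID 235627), needed for the alpha granules of platelets, lies on chromosome 9 from 110527006 to 110556665 on the minus strand and had 1 tag in each polyclonal 454 library and 2 at P13. At these counts Lrba, Nbeal1 and Nbeal2 entered no main test between the FMRP libraries. With no filter on low counts, none passed the edgeR test by antibody, age or protocol where it had a value (adjusted p = 0.752 to 0.967).

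**Figure D1:**
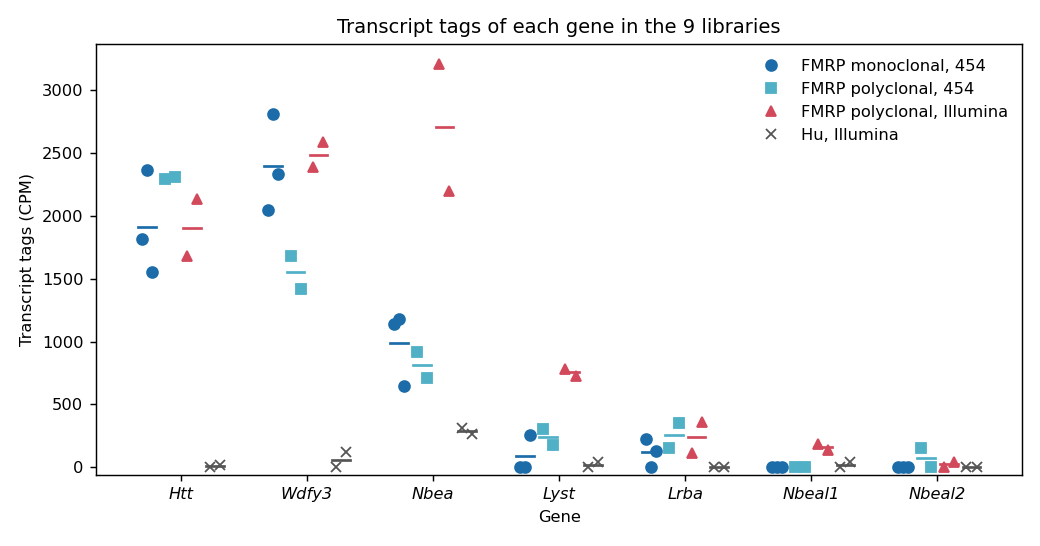
Transcript tags of each gene in the 9 libraries, in CPM on a linear axis. Each point is 1 library, the horizontal bars are group means, and colour and shape give the antibody and the sequencing platform. Htt and Wdfy3 sit at 1422 CPM or more in all FMRP libraries and at 120 CPM or less in the Hu libraries, while Nbea is highest in the FMRP libraries of Protocol 2.

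The table also carries expression values from other measurements. On an exon array Nbea had an intensity of 968 (percentile 94.5 among 19997 values), Wdfy3 883 (93.6), Htt 386 (81.2), Nbeal2 259 (72.1), Nbeal1 60.7 (31.9) and Lyst 14.4 (5.18), and Lrba had no value. The log2 expression in neurons was 11.82 for Nbea (percentile 97.0 of 16949), 10.89 for Wdfy3 (91.4), 8.83 for Lyst (63.1), 8.73 for Htt (61.5), 8.43 for Lrba (56.2), 8.04 for Nbeal1 (49.4) and 7.16 for Nbeal2 (33.3). Nbea and Wdfy3 thus stood above percentile 91 in both sets, whereas Htt is nearer the middle in neurons and has FMRP tags per kilobase at percentile 97.8. Since the tissue of the tag libraries was lysed in bulk, fewer cells of a type and less RNA per cell cannot be told apart in the tag counts. Nor can more mRNA and more binding per mRNA be told apart there. Both expression sets are other measurements, and whether the same limit holds for them was not tested.

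FMRP tags of these genes lay almost wholly in coding sequence. For Htt, 166 of 169 tags were coding (98.2%, 95% Wilson interval 94.9 to 99.4), where coding sequence makes up 75.2% of the transcript. For Wdfy3 it was 216 of 222 (97.3%, 94.2 to 98.8) against 85.4% of length, and for Nbea 180 of 186 (96.8%, 93.1 to 98.5) against 80.2%. In each of these 3 genes the coding share exceeded the length share in 7 of 7 FMRP libraries. Lyst had 46 of 47 tags in coding sequence (97.9%, 88.9 to 99.6) against 83.6%, above the length share in 4 of 5 libraries with a tag. Lrba had all 15 (100%, 79.6 to 100) against 68.6%. Nbeal1 had 8 of 9 (88.9%, 56.5 to 98.0) against 61.8%, an interval that includes the length share. Over all genes the coding share was 69.7% to 86.7% per FMRP library, where tags spread evenly over the same transcripts would give 52.9% to 57.4%. The intervals cover counting error only. The share of Htt leaves out the 2 tags just past its 3′ end, on a line with no coding length.

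**Figure D2:**
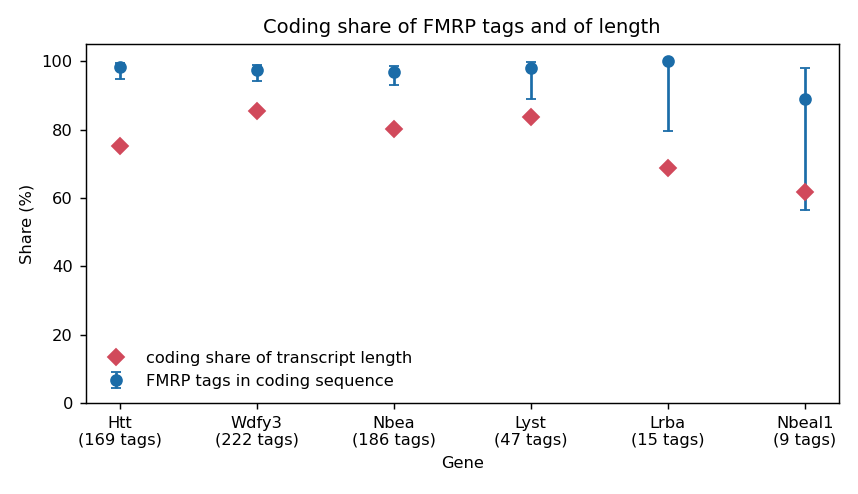
Share of FMRP tags in coding sequence (circles, with 95% Wilson intervals, tags summed over 7 libraries) and share of transcript length that is coding (diamonds), in percent on an axis from 0. The circles lie above the diamonds for all 6 genes drawn, and the interval of Nbeal1 reaches below its diamond.

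Within the transcripts the FMRP tags were spread along the coding sequence rather than gathered at a few places. Htt tags ran from nt 67 to nt 10081 of 12914, with the median tag middle at nt 5598, and no tag of 203 lay in the last 10% of the transcript (Wilson upper limit 1.86%). Nbea tags ran from nt 192 to nt 9693 of 10983, and 0 of 211 lay in the last 10% (upper limit 1.79%). Wdfy3 tags ran from nt 249 to nt 11145 of 12334, with 1 of 243 in the last 10%. Lyst had 0 of 58 there, Lrba 0 of 24 and Nbeal1 0 of 11. In all genes the share in the last 10% was 1.45% to 3.21% per FMRP library, and the upper limits of Htt and Nbea lie inside that range.

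Cut into windows of 100 nt, the Wdfy3 transcript had an FMRP tag in 92 of 124 windows (74.2%), Nbea in 75 of 110 (68.2%), Htt in 74 of 130 (56.9%) and Lyst in 38 of 139 (27.3%). The fullest window of Nbea, nt 8601 to 8700, held 14 tags from 4 libraries, of which 7 came from 1 library. The fullest of Wdfy3, nt 9401 to 9500, held 10 tags from 3 libraries, of which 6 came from 1 library. That of Htt, nt 8901 to 9000, held 9 tags from 3 libraries, of which 7 came from 1 library. No window held more than 6.64% of its gene's tags in these 3 genes. Exact start positions were rarely shared: 7 of 181 starts in Htt, 7 of 224 in Wdfy3, 7 of 187 in Nbea and 1 of 53 in Lyst were seen in at least 2 libraries, and nt 516 of Htt was seen in 3.

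The Hu tags of Nbea had another place. Of 21 Hu tags on Nbea, 11 lay past nt 9884, in the last 10% of the transcript (52.4%, 32.4 to 71.7), and 5 of them, from both Hu libraries, lay in the window from nt 10401 to 10500. None of the 211 FMRP tags reached that stretch. A further 6 Hu tags lay in the first 20% of the transcript and none between there and 60%. Wdfy3 had 2 of its 6 Hu tags in the last 10%. Over all genes 11.5% (P11) and 11.3% (P13) of Hu tags lay in the last 10% of the transcript. The measure of the last 10% was chosen after the positions had been seen, and no test was made of it.

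**Figure D3:**
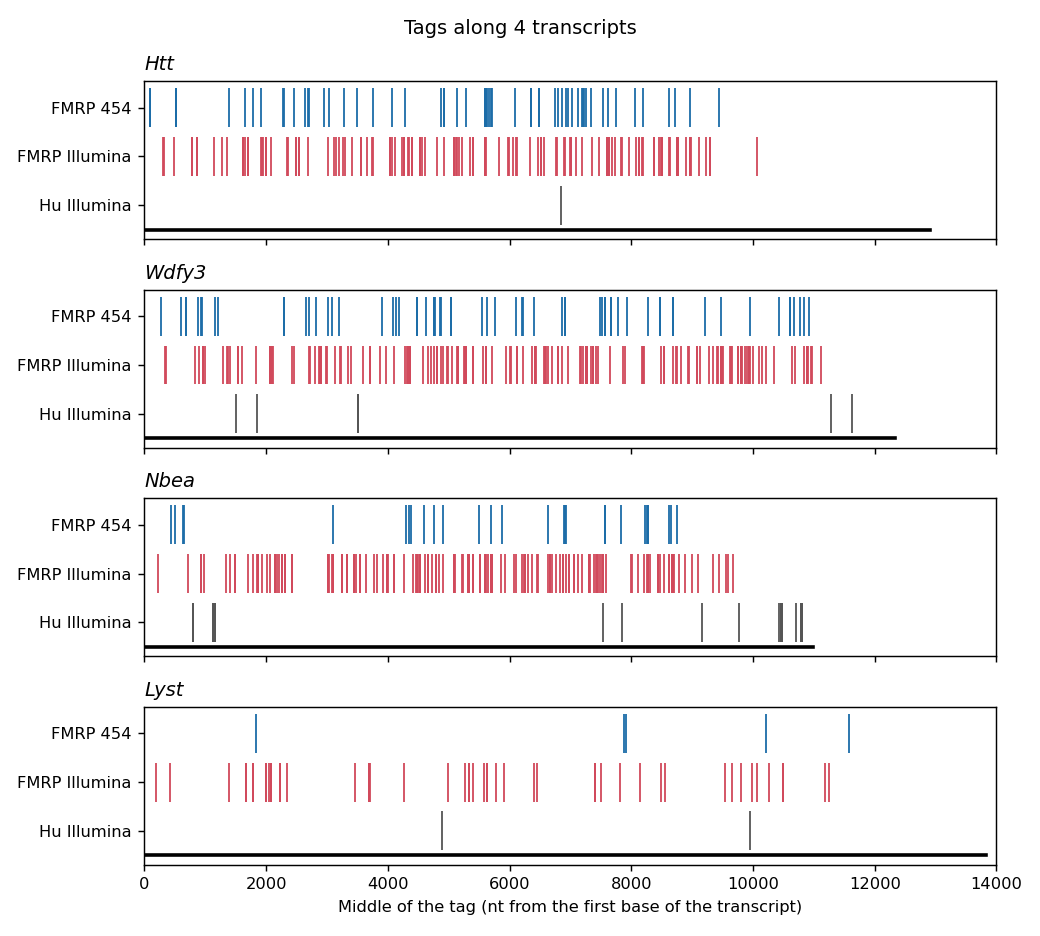
Tag middles along the Htt, Wdfy3, Nbea and Lyst transcripts, in nt from the first base, with 1 line per tag and 1 lane each for FMRP on 454, FMRP on Illumina and Hu on Illumina; the black bar is the transcript. FMRP tags are spread along the transcripts and leave the last 10% nearly empty, and 11 of 21 Hu tags of Nbea lie in the last 10%.

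FMRP and Hu were compared in the P11 and P13 lysates, where both proteins were precipitated and sequenced alike. Together the 7 genes took 0.836% (P11) and 0.819% (P13) of FMRP transcript tags and 0.0309% and 0.0481% of Hu transcript tags. Htt had 45 tags (P11) and 94 (P13) with FMRP, and 0 and 1 with Hu. Wdfy3 had 64 and 114 with FMRP, and 0 and 6 with Hu. Nbea had 86 and 97 with FMRP, and 8 and 13 with Hu. Lyst had 21 and 32 with FMRP, and 0 and 2 with Hu. For these 4 genes both FMRP libraries stood above both Hu libraries, and Nbea kept the most Hu signal, at 309 and 261 CPM.

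All 4 genes were higher with FMRP in the quasi-likelihood test of edgeR, adjusted by Benjamini-Hochberg over 1015 genes. Htt, Wdfy3 and Lyst had 0 Hu tags at P11, and Nbea had too few Hu tags at P13 for the filter on low counts. None of the 4 genes could pass that filter on Hu tags alone, so each passed only with its FMRP tags. Their direction in the test is thus not independent of the filter. The log2 ratio was 7.13 for Htt (SE 0.96, adjusted p = 0.0025), 5.29 for Wdfy3 (SE 0.89, adjusted p = 0.0025), 4.96 for Lyst (SE 0.95, adjusted p = 0.0031) and 3.49 for Nbea (SE 0.61, adjusted p = 0.0025). By that ratio they ranked 26th, 86th, 102nd and 208th among all genes tested. Of all 1015 genes 60.2% passed, 33.5% higher with FMRP and 26.7% lower, and the median log2 ratio was -0.16. These p-values measure only the spread between libraries of pooled mice. The fitted ratio of Htt rests on 1 Hu tag. As a plain ratio of library-scaled totals Htt was 149 times higher (139 tags against 1, exact counting interval 26.2 to 5908), Wdfy3 31.7 times (178 against 6, 14.3 to 87.5), Lyst 28.3 times (53 against 2, 7.46 to 240) and Nbea 9.31 times (183 against 21, 5.91 to 15.4).

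The other 3 members fell under the filter on low counts. Lrba had 3 and 16 tags with FMRP and none with Hu. Against a floor of 3 counts over the Hu group it was 6.77-fold higher, with an exact counting lower limit of 4.99. Nbeal1 had 5 and 6 tags against 0 and 2, a ratio of 5.88 (1.28 to 54.6), and Nbeal2 had 0 and 2 against none, which gives no fold. Lrba came into the test when no filter was set (log2 6.34, adjusted p = 0.0219 by edgeR) and when the FMRP P11 library was left out (7.41, adjusted p = 0.000697). It did not pass when the Hu P11 library was left out (6.42, adjusted p = 0.0622). Counted on the genome, within the gene bounds and on either strand, Lrba had a log2 ratio of -0.57 (edgeR adjusted p = 0.537). This count includes 6 Hu P11 tags on the other strand, and on its own strand Lrba had 12 FMRP against 19 Hu tags. Nbeal1, with 9 FMRP against 14 Hu tags on its strand of the genome, likewise lost the excess seen on the transcript.

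Long coding sequences were generally higher with FMRP in this comparison. Across 944 tested genes with a coding length, Spearman's rank correlation of that length with the log2 ratio was 0.763, over genes that share the same 4 libraries. Of 44 tested genes whose coding sequence is at least as long as that of Nbea, the 4 members included, 42 were higher with FMRP (95.5%), with a median log2 ratio of 3.78. Htt, Wdfy3 and Lyst lay above that median and Nbea below it. The 4 of 4 called among the members is therefore close to the share among genes of like coding length, and not particular to them. The part of coding length in the members' ratios was not tested.

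**Figure D4:**
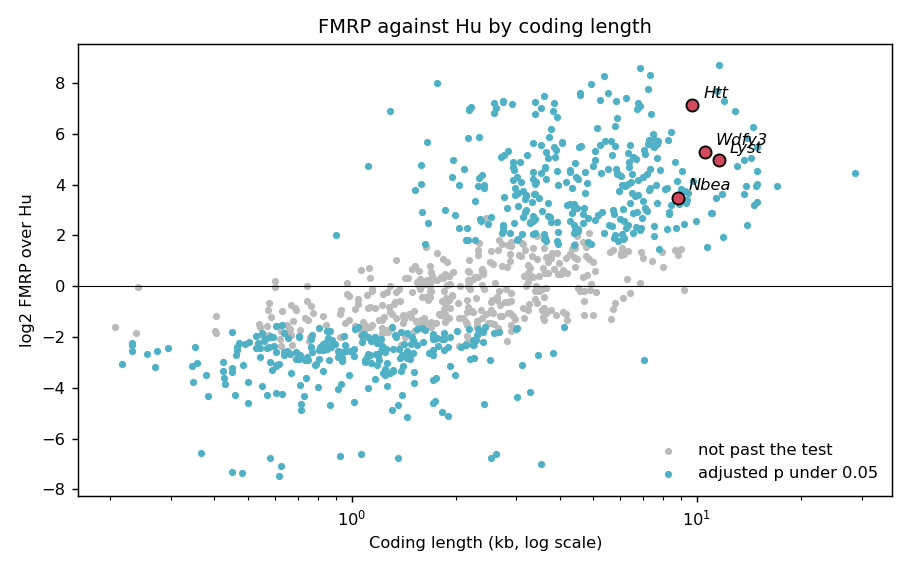
The log2 ratio of FMRP over Hu (y axis) against coding length in kb on a log axis (x axis), 1 point per gene among 944 tested genes with a coding length. Coloured points passed an adjusted p of 0.05 and the labelled points are Htt, Wdfy3, Lyst and Nbea, which sit at the long end among genes that are mostly higher with FMRP.

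Genes that work with the members were looked at from lists of named partners and pathways. The counts that follow are transcript tags of the P11 and P13 libraries, where 33.5% of all genes tested were higher with FMRP. Genes that could be tested were those with enough tags in at least 2 of these libraries, of either protein. A gene with few Hu tags in a library could enter only with its FMRP tags, as Kalrn, Dctn1, Atg2b, Ulk1, Ulk2, Akap6, Akap9 and Ap3d1 did. Prkar1a, with few FMRP tags at P11, could in turn enter only with its Hu tags. The direction of these genes in the test is thus not independent of the filter. Among 17 huntingtin partners, 14 had a tag in these libraries, 2 could be tested and both were higher with FMRP. Kalrn, known to bind the huntingtin-associated protein Hap1, had 24 and 73 FMRP tags against 0 and 11 Hu tags (log2 3.58, SE 0.98, adjusted p = 0.0136 by edgeR). Dctn1, the large subunit of the dynactin complex, had 13 and 19 against 0 and 0. Set against a floor of 3 counts it was 11.4-fold higher, with an exact counting lower limit of 8.74. The median log2 ratio of the 2 was 5.39, or 3.54 with Dctn1 at that floor-based fold, beside -0.16 for all genes tested. The list as a whole had 194 FMRP against 48 Hu tags, and its 13 tagged genes that could not be tested had 65 against 37. Among 3 other BEACH genes (Wdr81, Wdfy4 and Nsmaf), Wdr81 alone had a tag, with 2 and 10 against none, and none could be tested.

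In the selective autophagy list, 23 of 24 genes had a tag and 3 could be tested, all higher with FMRP, with a median log2 ratio of 2.31. The whole list had 225 FMRP against 162 Hu tags, and without the 3 tested genes 136 against 141. Ulk1 and Ulk2, kinases that start autophagosome formation, had 27 FMRP against 3 Hu tags (log2 3.42, adjusted p = 0.0039) and 38 against 12 (2.05, adjusted p = 0.0267). Atg2b, a lipid transfer protein of the growing autophagosome, had 24 against 6 (2.31, adjusted p = 0.0108, and 0.0727 with the lysate as a block). All are edgeR values. The other 21 genes of this list had too few tags to be tested. Some had more Hu tags, such as Gabarapl1 (6 against 22) and Map1lc3b (2 against 11). Others had more FMRP tags, such as Nbr1 (7 and 14 against 6 and 5) and Tax1bp1 (4 and 7 against 0 and 1).

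The list of protein kinase A and its anchoring proteins, to which neurobeachin is related by function, was divided. Of 15 genes, 14 had a tag, 6 could be tested, 2 were higher and 1 lower with FMRP, and the median log2 ratio was -0.46, with 393 FMRP against 435 Hu tags over the list. The anchoring proteins Akap9 (44 against 0) and Akap6 (154 against 35, log2 2.67, edgeR adjusted p = 0.00798) were higher. Akap9 was 15.7-fold higher against a floor of 3 counts, with an exact counting lower limit of 12.2. Akap11 had 94 against 78 (log2 0.57, edgeR adjusted p = 0.396). The regulatory subunit Prkar1a was lower with FMRP (17 against 89, log2 -2.08, edgeR adjusted p = 0.0436), and the catalytic subunits Prkaca and Prkacb had log2 ratios of -1.496 and -1.75 with edgeR adjusted p of 0.0715 and 0.063. In the list of lysosome-related organelles, 17 of 26 genes had a tag and 3 could be tested. Ap3d1, a subunit of the AP-3 adaptor, was higher with FMRP (34 against 11, log2 2.06, edgeR adjusted p = 0.035), and the median of the 3 was 1.34. This list had 232 FMRP against 177 Hu tags, and 53 against 60 without the 3 tested genes. Without the Hu P11 library, Dctn1 and Akap9 still passed the edgeR test and the other 7 genes called in these lists did not, at adjusted p of 0.0739 (Ulk1) to 0.373 (Ap3d1). Ulk1 and Prkar1a also did not pass without the Hu P13 library (adjusted p = 0.0711 and 0.0604), and Prkar1a did not without the FMRP P11 library (0.41). With no filter on low counts, Atg2b, Ulk1, Ulk2, Prkar1a, Akap6 and Ap3d1 did not pass (edgeR adjusted p = 0.0616 to 0.261). Prkar1a also did not pass in DESeq2 (adjusted p = 0.0869), Ulk2 on genomic tags (edgeR adjusted p = 0.105), or Kalrn and Akap6 with all 7 FMRP libraries (0.121 and 0.484).

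Within Protocol 1 the polyclonal antibody was set against the monoclonal mixture. With 5 libraries of 4485 to 8360 tags only 96 genes passed the filter, Htt and Wdfy3 among them. Htt was at 2299 and 2215 CPM with the polyclonal antibody against 1784, 1894 and 1316 CPM with the monoclonal mixture, which do not overlap in the authors' counts, whereas in the transcript lists the monoclonal P15 library (2366 CPM) was above both polyclonal libraries (2296 and 2311 CPM). The log2 ratio was 0.55 (SE 0.47, edgeR adjusted p = 0.991). Wdfy3 was at 1581 and 1363 CPM against 2007, 2977 and 2273 CPM, with no overlap in either count and the monoclonal mixture higher (-0.64, SE 0.46, edgeR adjusted p = 0.991). Of the 96 genes 0% were called by edgeR, with 3 genes at an unadjusted p under 0.05, and DESeq2 called none, with 0 genes at an unadjusted p under 0.05.

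For age, P25 was set against P14 and P15 with antibody as a term. Htt had a log2 ratio of -0.17 (SE 0.45, edgeR adjusted p = 0.887) and Wdfy3 of -0.10 (SE 0.40, edgeR adjusted p = 0.932). Htt was at 1316 (monoclonal) and 2215 CPM (polyclonal) at P25 and at 1784 to 2299 CPM in the younger libraries, and the Wdfy3 groups overlapped as well. Here too 0% of 96 genes were called, with 5 at an unadjusted p under 0.05 by edgeR and 0 by DESeq2.

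The protocols were compared over the 4 libraries made with ab17722. Nbea was at 718 and 681 CPM with Protocol 1 and at 2981 and 1882 CPM with Protocol 2, with no overlap, a log2 ratio of 1.98 (SE 0.56, edgeR adjusted p = 0.0459). Of 334 genes tested, 8.38% were called, 4.19% in each direction, but 26 higher and 0 lower were called with no filter on low counts, and 18 higher and 2 lower without the FMRP P11 library. The call for Nbea lies near the threshold. It was not made by DESeq2 (adjusted p = 0.391), on the transcript lists (1.81, edgeR adjusted p = 0.071) or when any 1 of the 4 libraries was left out (1.76 to 2.31, edgeR adjusted p = 0.0518 to 0.33). Wdfy3 had a log2 ratio of 0.77 (SE 0.47, edgeR adjusted p = 0.311) and Htt of -0.35 (SE 0.46, edgeR adjusted p = 0.652), and Htt became 0.36 when no filter on low counts was set. Lyst did not enter the main test. Its log2 ratio was 2.26 with no filter (edgeR adjusted p = 0.659) and 1.68 on the transcript lists (edgeR adjusted p = 0.194). SDS concentration, sequencing platform and age differ together between these groups and cannot be told apart. This comparison and the one with Hu share the FMRP libraries of P11 and P13.

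The genes most like each member were found by the distance of log2(CPM + 100) over the 9 libraries, among 781 genes with at least 50 transcript tags. Close to Htt were Eef2, a translation elongation factor (distance 1.04), and Wdfy3 (1.44), where the median gene was 7.19 away. Closest to Wdfy3 were Htt (1.44), 2610507B11Rik (1.48) and Eef2 (1.53), with a median of 7.21. Htt and Wdfy3 were thus each among the 3 genes nearest to the other. Closest to Nbea were Fry, a large scaffold protein (1.63), Dst, a cytoskeletal linker (1.85), and Hivep2, a zinc finger transcription factor (1.86), against a median of 5.39. Fry (9 and 20), Dst (3 and 6) and Hivep2 (6 and 16), like Nbea, had Hu tags in both Hu libraries, which were among the 9 used for the distance. Lyst was nearest to the nucleoporin gene Ranbp2 (1.72), to Spen (2.18) and to Arhgap20 (2.34), against a median of 5.59.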

How the data were processed

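The members and the gene lists were chosen with earlier results of these data known. Per the submitters' processing notes, reads were aligned with Novoalign to mm9. The sources used here give no versions. The authors deposited, per library, lists of unique tags on the genome and on RefSeq transcripts. In the 454 lists the deposited value per tag holds read counts, going by the values, and in the Illumina lists it is a score of no stated meaning; neither was used, and each line was counted as 1 tag. The authors' gene table holds tag counts per gene and library over the transcript and the coding sequence. It also holds scores (a rank, a chi-square statistic and the number of libraries), and the p-value in it is the authors' own, reached by a calculation that the sources used here do not give. Per the file headers it carries an exon array intensity and a log2 expression value in neurons from other measurements. Of its 30999 lines, 314 name no gene (0.277% of FMRP tags) and were left out.

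FMRP was compared with Hu on transcript tags, since the table has no Hu columns, and all other comparisons used the authors' counts. edgeR 4.0.16 in R 4.3.3 was run with TMM factors, filterByExpr, the quasi-likelihood test and Benjamini-Hochberg adjustment at 0.05 over all genes tested, after a check on simulated counts. DESeq2 1.42.0, other scalings, no filter, a lysate block, single library omission, genomic tags and 1 tag per start were the alternatives. Folds against 0 tags use a floor of 3 counts over the group, and intervals are at 95%. Positions on transcripts come from the transcript lists, and a strand is that of most genomic FMRP tags. Genes named besides the members were the 3 nearest in pattern to each member with at least 50 tags, and, per list, the genes that passed the test with FMRP against Hu; the other list genes and the nested genes were named after their values were seen. One gene that this rule names is not reported here. The series text says that the FMRP and Hu libraries of P11, and those of P13, each share a lysate. The main test of FMRP against Hu did not use this pairing, and the lysate block was an alternative. The P11 to P13 differences of FMRP and Hu correlated at r = 0.16 over 1015 genes. With an annotation of mm9 not used here, no sequence is shown.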

Additional observations from a re-analysis of the deposited data

Results flagged for a closer look

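Hu tags placed on the genome entered the comparison with FMRP only as an alternative to transcript tags. On the strand of the gene and within its bounds, 6 members had more of them than Hu tags on the transcript. In 5 the excess was above 3 counts, a limit set for a count of 0 that does not measure the spread of a difference. It was 6 tags for Htt (7 against 1), 19 for Lrba (19 against 0), 20 for Nbea (41 against 21), 12 for Nbeal1 (14 against 2) and 5 for Lyst (7 against 2), while Wdfy3 had 9 against 6. With FMRP, the same lysates gave fewer genomic than transcript tags for these 5 genes (107 against 139 for Htt, 12 against 19 for Lrba, 165 against 183 for Nbea, 9 against 11 for Nbeal1 and 44 against 53 for Lyst). As a whole, the Hu libraries held 59118 (P11) and 98832 (P13) tags on the genome against 25873 and 49847 on transcripts. The FMRP libraries of these lysates held 43593 and 68178 against 26794 and 44076. Such totals include tags outside genes, and the excess was not tallied over all genes. For Lrba the 19 Hu tags came from both libraries (11 at P11, 8 at P13), and no bin of 1000 nt held more than 2 of them. In Nbea the fullest 1000 nt held 8. A gene nested in Lrba, Mab21l2, had 3 Hu P11 tags on the other strand, which are not among the 19. They were counted for Lrba in the test on genomic tags, which took both strands. Whether these tags lie in introns was not tested. The tally was made after the data had been seen.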

How the results depend on the processing

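With FMRP against Hu, Htt, Wdfy3, Nbea and Lyst kept their direction and passed in every alternative in which they were tested, with log2 ratios of 4.26 to 9.18 (Htt), 3.02 to 9.57 (Wdfy3), 1.34 to 4.17 (Nbea) and 2.76 to 7.85 (Lyst). The number of genes called was 611, 146 with the 7 FMRP libraries together and platform as a term (202 genes tested), and 323 to 506 when 1 library was left out, the lowest without Hu P11. With the lysate as a block 604 genes were called, and of the members' calls none changed. FMRP-higher genes made up 55.6% of calls with TMM, 61.3% with DESeq2's size factors, 47.9% with library totals and 72.3% with DESeq2 (84.8% without FMRP P11, with 77 lower calls in place of 271, and 81.2% without Hu P13, with 84), as the median log2 ratio moved from -0.16 to 0.21 and -0.38 with the other 2 scalings. Between protocols 28 genes were called, 0 by DESeq2 and 0 to 20 without 1 library. Between antibodies 0 were called in every alternative, the age class as a block included, and likewise for age. The age ratios without 1 library ran from -0.47 to 0.078 for Htt (0.078 without the monoclonal P25 library) and from -0.27 to 0.16 for Wdfy3 (0.16 without the monoclonal P15 library), and Htt between protocols was 0.36 with no filter. The coding share over 6 members (all but Nbeal2) was 97.4%, and 96.3% to 98.0% without 1 library. Pooled over 6 members the level was 74.4 CPM per kb of transcript, 123 per kb of coding sequence from coding tags, and 70.6 to 76.7 without 1 library. The cause of these shifts was not tested. Depth limits the 454 libraries, where 3 counts are 359 to 669 CPM.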
